A study of Mus musculus with 2 samples.

Results

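The genes described here are 9 genes used as transcription factors and markers of the primed epiblast: Otx2, Pou3f1, Zic2, Utf1, Nkx1-2, Pim2, Kcnj3, Car14 and Enpp3. They were taken by their symbols from a table of 33963 genes, and all 9 were in it. They were chosen by their known role together with their summed levels in the primed-tagged cells against the other tags, so those levels are a description. In primed pluripotency, the state of the epiblast after implantation, cells express Oct4 (Pou5f1) together with transcription factors that reset enhancers for later lineages, among them Otx2, the POU factor Pou3f1 (Oct6) and Zic2. FGF and Activin signalling maintain this state in culture. Naive cells, the counterpart of the epiblast before implantation, are instead maintained by LIF with inhibitors of MEK and GSK3.

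Populations of mouse cells (strain 129/Ola) at 5 stages were measured by single-cell RNA-seq, each tagged with an oligonucleotide on antibodies to CD9 and CD63 and all pooled in 1 cDNA library. Naive mESCs carried a Rex1-GFP reporter. Primed mEpiSCs were of the Oct4GIP line, which has an Oct4 reporter transgene, and were grown in FGF2 and Activin A on feeder fibroblasts (MEFs). The treated groups were Oct4GIP cells kept with LIF and AICAR, which activates AMPK, until day 8 (d8) or day 16 (d16). A last group was made from the d16 culture by 10 passages in 2iL, the naive medium with LIF and both inhibitors (d16+10p). The primed and treated groups thus came from 1 line, while the naive cells were another line. Each stage was 1 sample. Cells of 1 sample do not replicate a condition, so differences have no test, and intervals cover counting error at 95% only.

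The table held 307121033 reads in 17720 cells: 801 naive, 1826 primed, 9627 d8, 4315 d16 and 1151 d16+10p. No cell number was used in more than 1 column (0 shared). Median depth per cell ran from 10185 reads in d16 to 21551 in d16+10p. Levels are summed reads of a gene scaled to 1000000 reads of the group (CPM). Log2 ratios of CPM have a pseudocount of 1 CPM, which understates the ratio of low genes, and their intervals are without it. A gene counts as higher or lower from 2-fold, where it reached 10 CPM in either group. A level does not tell fewer expressing cells from less RNA per cell. The share of cells with a read is therefore given as well, after each cell was thinned to 5000 reads.

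Only part of the cells with the primed tag had the profile that the label names. The deposited table held 1826 such cells, although 500 primed cells were loaded. Of these, 423 (23.2%) lay in a Pou5f1-high cluster, cluster 12, called primed epiblast-like because 6 of 8 marker genes (Pou5f1, Dnmt3b, Fgf8, Fgf15, Wnt8a and T) were at least 2-fold higher there. They are called the primed core. The other 1403 cells lay in other clusters, and 8 fibroblast markers summed to 2475 CPM in them against 449 CPM in the core. Feeder cells, differentiated cells and wrong tags cannot be told apart among them. Results are given for all primed-tagged cells and for the core. Because 5 of the 9 genes helped to form the clusters and 4 were among the 10 genes that led cluster 12, core levels are a description. Without the 9 genes in the clustering, the matching cluster had 433 cells, against 434.

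As a measure of free RNA, the 941 cells of the macrophage-like cluster were used, a cell type in which most of these genes are not known to act, although Pim2 is known from blood cells. Their level was 0.934% of the core level for Nkx1-2, 2.80% for Pim2, 3.52% for Enpp3, 4.41% for Kcnj3, 5.11% for Utf1 and 8.50% for Car14. It reached 14.5% for Pou3f1, 22.7% for Zic2 and 56.9% for Otx2. The core level of Otx2 was thus less than 2-fold above this background, and the other 8 genes stood further above it.

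In all primed-tagged cells, 7 of the 9 genes were at least 2-fold higher than in naive cells, against 3.55% of the 10549 genes that passed the 10 CPM filter. Pim2, Enpp3, Car14, Kcnj3, Pou3f1, Utf1 and Otx2 were the 7, and Nkx1-2 and Zic2 were not. All 9 genes passed the filter, but Nkx1-2, Kcnj3, Car14 and Enpp3 did so only through the primed cells and could be called only as higher. In the primed core against the core of the naive cells (514 cells of cluster 11), 8 of 9 were higher, beside 4.95% of all genes, and the exception was Zic2. The median log2 ratio was 2.80 over the 9 genes and 0.01 over all genes. In the naive core only Zic2, Utf1 and Nkx1-2 reached 10 CPM. The genes were chosen partly by these levels, so the counts and the median are a description. The same limit holds below for the counts of genes lower in treated than in primed cells. Pou5f1 itself was at a near level in both cores, with a log2 ratio of 0.12 (0.06 to 0.19).

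**Figure D1:**
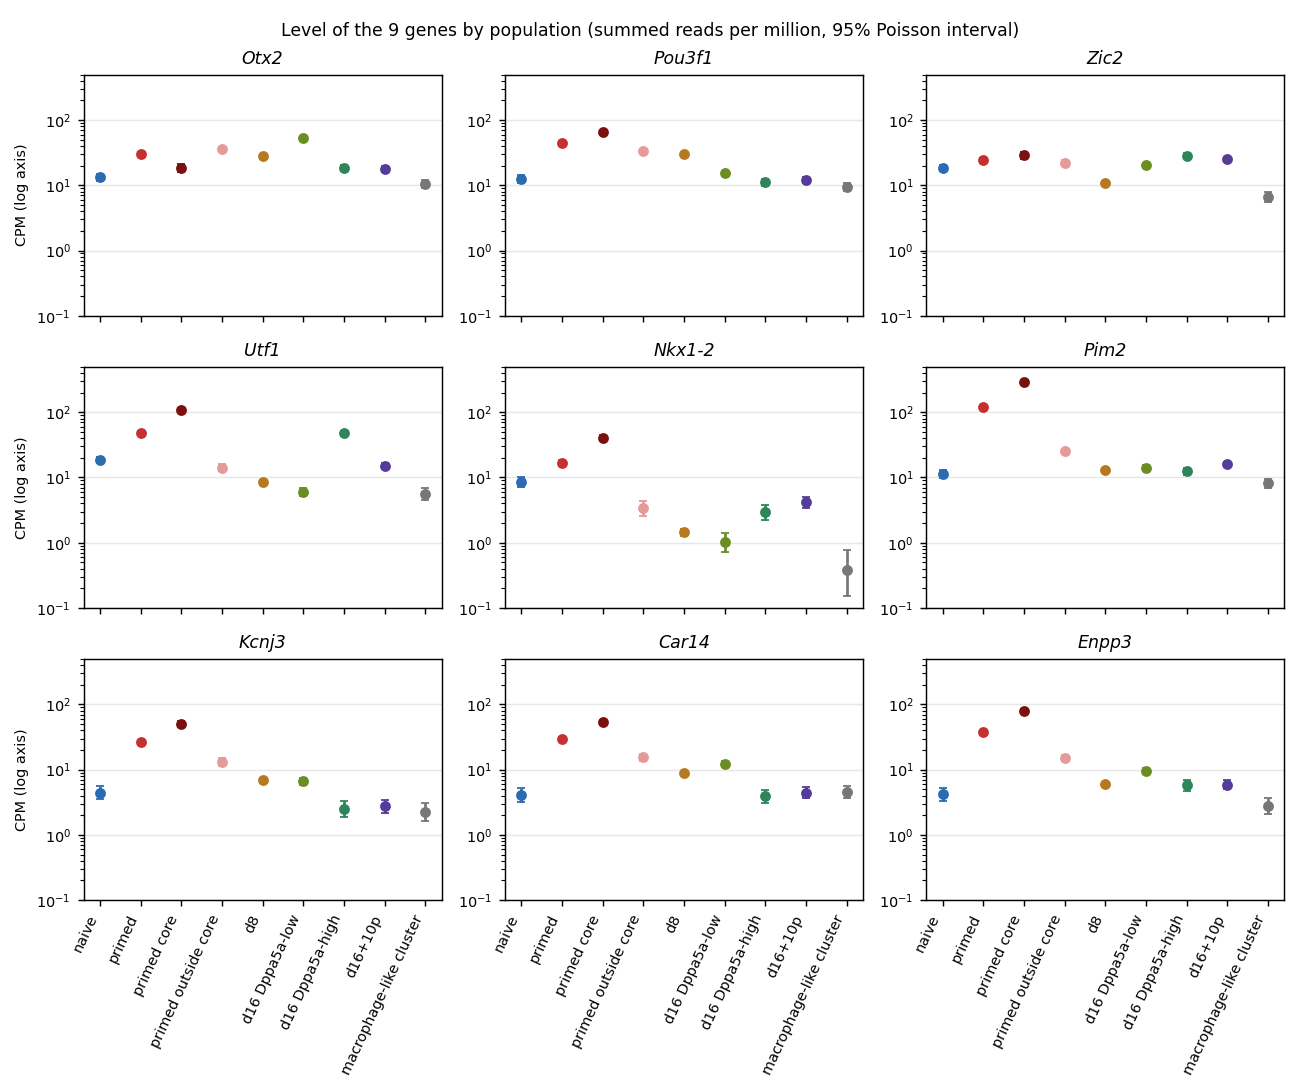
Level of each gene (CPM, log axis) in the tagged populations, in primed-tagged cells inside and outside the core, in d16 cells above and below 1000 CPM of Dppa5a, and in macrophage-like cells; points are summed reads scaled to 1000000 and bars 95% Poisson intervals. Pim2 reached 291 CPM in the primed core and at most 25.3 CPM in each other group apart from all primed cells (121 CPM), while Otx2 was highest, at 52.7 CPM, in Dppa5a-low d16 cells.

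Otx2 is a homeodomain factor of the early epiblast, later of the anterior neural plate and the anterior endoderm (chr14:48657677-48673819, minus strand, GRCm38). Its level was 13.2 CPM in naive and 29.8 CPM in primed cells, then 28.0 CPM at d8, 39.9 CPM at d16 and 18.0 CPM in d16+10p. It was the only 1 of the 9 that was lower in the primed core (18.3 CPM, 15.7 to 21.1) than in the other primed-tagged cells (36.4 CPM, 33.7 to 39.3). After thinning, 5.81% of core cells and 12.9% of the other primed-tagged cells had an Otx2 read, beside 4.09% of macrophage-like cells. By cluster, Otx2 was highest in mesendoderm-like cluster 9, marked by Gsc, Eomes, Foxa2, Lhx1 and Cer1, at 228 CPM. Cluster 3, led by Fabp7, had 73.1 CPM and the neural-like cluster 71.4 CPM, and their intervals overlapped. Within cluster 9, the level was 233 CPM (205 to 263) in primed-tagged cells, 242 CPM (232 to 252) in d8 cells and 79.8 CPM (62.9 to 99.9) in d16 cells. Cluster 9 held 46.7% of the Otx2 reads of d8 in 7.25% of its cells, and cluster 3 held 57.8% of those of d16 in 38.4% of its cells. The Otx2 level of a whole tag was thus mostly that of cells outside the primed core.

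Pou3f1, a POU-domain factor of primed epiblast, glia and skin (chr4:124656807-124660655, plus strand), was at 12.4 CPM in naive and 44.9 CPM in primed cells, then 29.9 CPM at d8, 13.7 CPM at d16 and 12.1 CPM in d16+10p. The intervals of naive, d16 and d16+10p overlapped. In the primed core it stood at 64.9 CPM (60.0 to 70.1), with a read in 23.5% of thinned core cells, 4.64% of naive cells and 3.73% of macrophage-like cells. The core was not alone in this. The neural-like cluster (69.8 CPM), cluster 12 (67.1 CPM) and the epithelial-like cluster 1 (63.1 CPM) had overlapping intervals. At d8, cluster 1 held 48.7% of the Pou3f1 reads in 21.1% of the cells, and primed-tagged cells of the same cluster had an interval of 65.5 to 85.5 CPM.

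Zic2, a zinc finger factor that binds epiblast enhancers (chr14:122475435-122479852, plus strand), varied least among the populations. It was at 18.4 CPM in naive and 24.5 CPM in primed cells, then 10.9 CPM at d8, 23.6 CPM at d16 and 25.4 CPM in d16+10p, and the intervals of primed, d16 and d16+10p overlapped. The core had 29.0 CPM (25.8 to 32.5), a log2 ratio to the naive core of 0.61 (0.38 to 0.89). A Zic2 read was found in 13.3% of thinned core cells, 7.78% of naive cells and 1.92% of macrophage-like cells. The levels of clusters 9 (35.1 CPM), 5 (29.5 CPM), 12 (28.7 CPM) and 7 (25.4 CPM) overlapped from each to the next.

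Utf1, a chromatin-bound factor of pluripotent and germ cells (chr7:139943789-139945112, plus strand), was at 18.4 CPM in naive and 48.8 CPM in primed cells, then 8.61 CPM at d8, 21.7 CPM at d16 and 15.2 CPM in d16+10p. The primed core had 110 CPM (104 to 117), and 81.5% of the Utf1 reads of primed-tagged cells lay in it. Thinned core cells had a Utf1 read in 35.4% of cases, primed-tagged cells outside the core in 4.29%, naive cells in 7.78% and macrophage-like cells in 2.04%. Next in order was cluster 5 at 51.3 CPM (48.3 to 54.5). That cluster was led by the germ cell genes Dazl and Stra8, had 9 of 9 naive markers at least 2-fold higher, and held most Dppa5a-high d16 cells.

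Nkx1-2, a homeodomain factor of the caudal epiblast (chr7:132594878-132599637, minus strand), was at 8.52 CPM in naive and 16.6 CPM in primed cells, then 1.44 CPM at d8, 1.74 CPM at d16 and 4.16 CPM in d16+10p. In the primed core it reached 40.1 CPM (36.3 to 44.2) against 3.37 CPM in the other primed-tagged cells. After thinning, 16.2% of core cells, 3.41% of naive cells and 0.120% of macrophage-like cells had a read. The second cluster in order was cluster 11, that of the naive cells, at 10.6 CPM, and 91.8% of the Nkx1-2 reads of naive cells lay in it. Nkx1-2 was thus above the macrophage-like level in naive cells as well (0.375 CPM in macrophage-like cells).

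Pim2 encodes a serine/threonine kinase that promotes growth and survival (chrX:7878262-7883432, plus strand) and had, of the 9 genes, the highest ratio of the primed core to the highest other cluster. Its level was 11.4 CPM in naive and 121 CPM in primed cells, then 13.1 CPM at d8, 13.5 CPM at d16 and 16.0 CPM in d16+10p. The primed core had 291 CPM (281 to 302), 8.67-fold the highest other cluster, cluster 2, which was led by Lefty1 and Lefty2 (33.6 CPM). A read was present in 63.0% of thinned core cells (58.1 to 67.6%), in 6.83% of the other primed-tagged cells, in 6.14% of naive cells and in 2.64% of macrophage-like cells. The log2 ratio to naive was 3.30 (3.20 to 3.62) over all primed-tagged cells and 4.93 (4.81 to 5.38) between the cores.

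Kcnj3 encodes a subunit of a G protein-gated inwardly rectifying potassium channel (chr2:55435970-55598145, plus strand), and shares 1621 of its 5215 exonic bases with Gm26794 on the opposite strand, whose reads were not analysed here. It was at 4.47 CPM in naive and 26.8 CPM in primed cells, then 7.05 CPM at d8, 5.11 CPM at d16 and 2.74 CPM in d16+10p. The core had 50.9 CPM (46.6 to 55.5), with a read in 17.4% of thinned cells against 0.962% of macrophage-like cells. Cluster 2 (23.0 CPM) and the neural-like cluster (22.2 CPM) followed with overlapping intervals. Within cluster 2 the intervals of the tags overlapped, with 31.5 CPM (18.7 to 49.8) in naive, 23.4 CPM (19.6 to 27.7) in primed and 22.5 CPM (20.5 to 24.8) in d8 cells.

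Car14, a membrane-bound carbonic anhydrase (chr3:95897768-95904691, minus strand), was at 4.12 CPM in naive and 29.2 CPM in primed cells, then 8.89 CPM at d8, 9.21 CPM at d16 and 4.46 CPM in d16+10p. Its core level of 53.5 CPM (49.1 to 58.2) was 1.19-fold that of cluster 10, which was led by T and Shh and had 45.0 CPM (41.0 to 49.2). Primed-tagged cells of cluster 10 had 66.1 CPM (49.8 to 86.0) and d8 cells of the same cluster 44.4 CPM (40.1 to 49.0). Car14 shares 445 of its 2543 exonic bases with Aph1a on the opposite strand, and reads in the shared part cannot be told apart. Aph1a was at 68.9 CPM in naive and 124 CPM in primed cells, then 104 CPM at d8, 140 CPM at d16 and 79.1 CPM in d16+10p. It thus moved with Car14 from naive to primed, to d8 and to d16+10p, and against it from primed to d16. It had 130 CPM in the primed core, 118 CPM in cluster 10 and 72.7 CPM in macrophage-like cells, and its part in the Car14 level was not tested.

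Enpp3, an ectonucleotidase that cleaves extracellular nucleotides (chr10:24772406-24842823, minus strand), was at 4.18 CPM in naive and 38.2 CPM in primed cells, then 5.96 CPM at d8, 8.08 CPM at d16 and 5.87 CPM in d16+10p. The core had 79.0 CPM (73.6 to 84.7), with a read in 27.1% of thinned cells, 2.32% of naive cells and 1.08% of macrophage-like cells. Fibroblast-like cluster 6 was next, at 23.0 CPM (20.2 to 26.1), and held 35.7% of the Enpp3 reads of d16 in 17.0% of its cells. In that cluster the level was 24.5 CPM (18.2 to 32.3) in primed-tagged and 22.9 CPM (19.5 to 26.7) in d16 cells.

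Over all clusters of at least 100 cells, 15 in number, 6 of the 9 genes (Utf1, Nkx1-2, Pim2, Kcnj3, Car14 and Enpp3) were highest in cluster 12. The same count of 6 was found with coarser clusters (resolution 0.4) and with clusters made without the 9 genes. The share of all genes that were highest in cluster 12 was not computed. The 9 genes were also chosen partly by their level in primed-tagged cells, so the count is a description. The core was above the highest other cluster by 8.67-fold for Pim2, 3.79-fold for Nkx1-2, 3.43-fold for Enpp3, 2.21-fold for Kcnj3, 2.15-fold for Utf1 and 1.19-fold for Car14. For Pou3f1, Zic2 and Otx2 the same ratio was 0.930, 0.825 and 0.0803. A ratio under 1 means that another cluster was higher. For Otx2 the intervals of the core and of that cluster were apart, whereas for Pou3f1 and Zic2 they overlapped. The Car14 intervals of the core (49.1 to 58.2 CPM) and of cluster 10 (41.0 to 49.2 CPM) overlapped at their edge. The genes highest in cluster 12 included the factors Utf1 and Nkx1-2 beside the kinase, the channel and both enzymes.

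**Figure D2:**
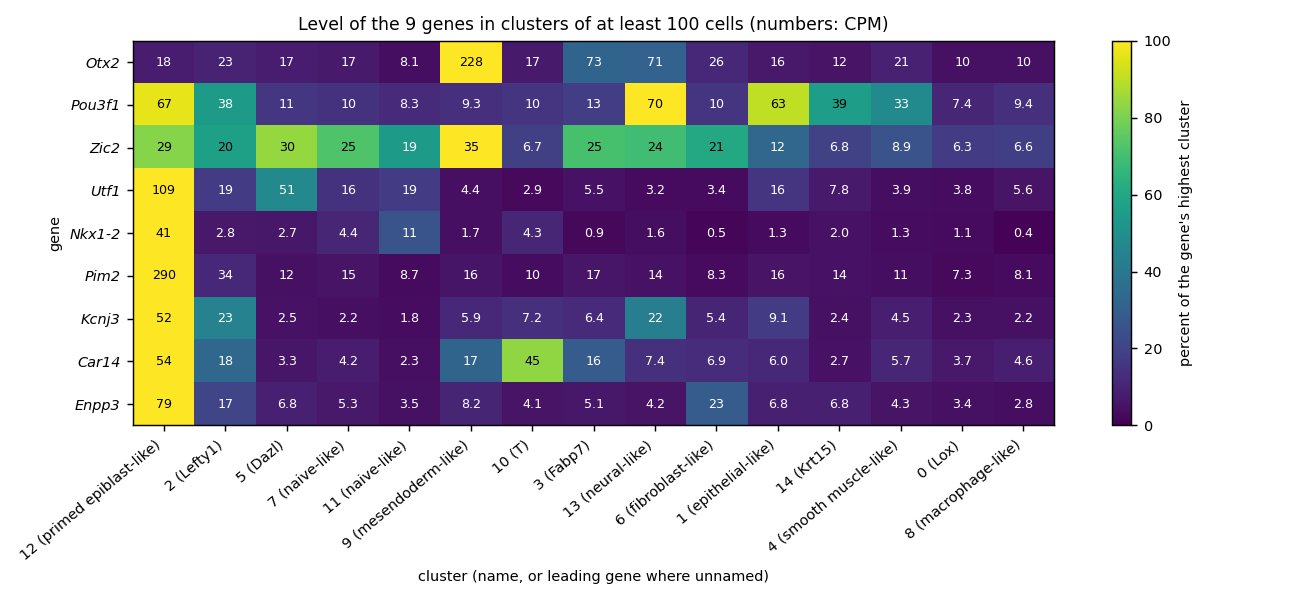
Level of each gene (number in the cell, CPM) in the 15 clusters of at least 100 cells, coloured by percent of the gene's highest cluster; the axis gives the cluster's name or, where it has none, its leading gene. Cluster 12 is the highest column for 6 genes, whereas the 228 CPM of Otx2 lie in cluster 9 and Pou3f1 has 3 columns between 63.1 and 69.8 CPM.

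The promoter windows of the 3 genes with the highest core level relative to other clusters are shown because these genes set cluster 12 most apart from the other clusters. They run from 250 bases before to 50 bases after the RefSeq start (GRCm38.p6), at chrX:7878056-7878355 (plus strand) for Pim2, chr7:132599588-132599887 (minus strand) for Nkx1-2 and chr10:24836146-24836445 (minus strand) for Enpp3. The Enpp3 window lies inside the GENCODE span of the gene (chr10:24772406-24842823), so its RefSeq start is not the outermost start there. Which start was used in these cells was not tested. Capitals mark motifs found on either strand.
Pim2: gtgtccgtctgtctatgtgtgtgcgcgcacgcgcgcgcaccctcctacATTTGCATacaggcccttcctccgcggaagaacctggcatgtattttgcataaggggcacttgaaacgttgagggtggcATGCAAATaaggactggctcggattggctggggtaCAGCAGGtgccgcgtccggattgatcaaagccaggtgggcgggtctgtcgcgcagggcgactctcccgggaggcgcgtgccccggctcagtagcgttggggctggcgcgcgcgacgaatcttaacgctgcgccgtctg
Nkx1-2: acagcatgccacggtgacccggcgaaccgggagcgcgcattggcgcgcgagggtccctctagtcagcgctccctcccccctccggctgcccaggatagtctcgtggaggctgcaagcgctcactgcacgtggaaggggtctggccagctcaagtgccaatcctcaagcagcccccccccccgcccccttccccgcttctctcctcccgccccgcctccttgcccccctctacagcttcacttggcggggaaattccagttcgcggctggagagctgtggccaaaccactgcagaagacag
Enpp3: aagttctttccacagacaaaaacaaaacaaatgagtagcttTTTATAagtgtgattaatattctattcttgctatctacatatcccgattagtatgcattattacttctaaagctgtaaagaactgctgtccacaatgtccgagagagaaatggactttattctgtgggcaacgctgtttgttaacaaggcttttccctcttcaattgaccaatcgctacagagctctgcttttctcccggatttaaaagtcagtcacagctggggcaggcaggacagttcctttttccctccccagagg
The motifs searched were the octamer ATGCAAAT bound by POU factors, the OTX-type site TAATCC, the ZIC-type site CCTGCTG and the TATA box TATAAA. In the Pim2 window 2 octamers began 202 and 123 bases before the start, the first on the opposite strand (ATTTGCAT), and a ZIC-type site on the opposite strand (CAGCAGG) began 88 bases before it. Of 32851 windows, 1.74% held an octamer, 0.107% held at least 2 and 10.5% a ZIC-type site. The Nkx1-2 window held none of the 4 motifs. The Enpp3 window held a TATA box on the opposite strand (TTTATA, 209 bases before the start), a motif present in 13.6% of windows. In CpG content the windows differed, with 31 CpG in Pim2, 21 in Nkx1-2 and 5 in Enpp3, beside a median of 7. Entries were found for 7 of the 9 genes. No binding was measured, and a match is a description of letters.

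At d8, 7 of the 9 genes were at least 2-fold lower than in all primed-tagged cells, beside 3.28% of all genes, and 8 were lower than in the primed core, beside 8.57%. Utf1, Nkx1-2, Kcnj3, Car14 and Enpp3 were under 10 CPM at d8 and passed the filter only through the primed cells. They could be called only as lower, so these shares are no measure for them. Against the core the log2 ratio was -4.37 for Pim2 (291 to 13.1 CPM), -4.07 for Nkx1-2 (40.1 to 1.44), -3.53 for Utf1 (110 to 8.61) and -3.52 for Enpp3 (79.0 to 5.96). It was -2.69 for Kcnj3, -2.46 for Car14, -1.33 for Zic2 and -1.09 for Pou3f1. Otx2 stood apart, with 0.59 (0.40 to 0.83) against the core and -0.09 (-0.20 to 0.01) against all primed-tagged cells. The d8 sample held few cells of the Pou5f1-high clusters, and 8 of them lay in cluster 12. Of 6 marker lists of other cell types, 3 had a higher summed level at d8 than in primed-tagged cells, those of macrophages (3051 against 779 CPM), epithelium (2657 against 1242 CPM) and smooth muscle (1168 against 480 CPM). The other 3 were lower, those of fibroblasts (1536 against 1742 CPM), neural cells (242 against 363 CPM) and mesendoderm (153 against 182 CPM). The part of cell composition in these ratios was not tested.

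The 11 cells of other tags in cluster 12 (8 of d8, 2 naive and 1 of d16) had a summed level of the 9 genes of 799 CPM (688 to 922), beside 737 CPM (720 to 754) in the primed core. Pim2 was at 235 CPM (177 to 306) in them. With so few cells, a wrong tag and an untreated profile that persisted cannot be told apart.

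At d16, 7 of the 9 genes were lower than in all primed-tagged cells, beside 0.888% of all genes, with Otx2 at 0.41 (0.30 to 0.54) and Zic2 at -0.05 (-0.19 to 0.08). The d16 cells were split at 1000 CPM of Dppa5a, a gene of naive cells, into 1278 high (29.6%) and 3037 low cells. The split is a range of 1 gene and no cell type, and 295 cells lay between 500 and 2000 CPM. In the Dppa5a-high cells 6 genes were lower than in all primed-tagged cells, beside 4.78%, and 7 were lower than in the core, beside 3.59%. Nkx1-2, Kcnj3, Car14 and Enpp3 were under 10 CPM both in all d16 cells and in the Dppa5a-high cells. They could be called only as lower than in primed cells, so these shares are no measure for them. Against the core the log2 ratio was -4.45 for Pim2, -3.89 for Kcnj3, -3.57 for Enpp3, -3.48 for Car14, -3.38 for Nkx1-2, -2.45 for Pou3f1 and -1.18 for Utf1. Kcnj3 (2.50 CPM) and Car14 (3.90 CPM) overlapped in their intervals with macrophage-like cells (2.25 and 4.55 CPM). The size of their ratios is thus limited by this background. Zic2 (-0.02, interval -0.23 to 0.18) and Otx2 (0.01, interval -0.25 to 0.27) had intervals that held 0.

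Dppa5a-high and Dppa5a-low cells differed most in Utf1, at 48.2 CPM (45.2 to 51.3) in the high and 6.02 CPM (5.23 to 6.89) in the low cells, a log2 ratio of 2.81. Of the 9 genes 6 passed the 10 CPM filter in this comparison. Utf1 was the only 1 of them at least 2-fold higher in the high cells, beside 11.2% of all genes. Otx2 (18.3 against 52.7 CPM) and Car14 (3.90 against 12.4 CPM) were lower, beside 16.6%. Utf1 passed only through the high cells and Car14 only through the low cells, so these shares are no measure for them. Nkx1-2, Kcnj3 and Enpp3 were under the filter in both. Utf1 in the high cells was also above its naive level, with a log2 ratio of 1.34 (1.21 to 1.58), and was the only gene of the 5 that passed to be higher, beside 2.66% of all genes. Its share of thinned cells with a read was 16.1% in the high cells and 7.78% in naive cells. In cluster 5, Utf1 was at 51.9 CPM (48.7 to 55.3) in d16 cells and 61.4 CPM (45.1 to 81.6) in the 53 primed-tagged cells.

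In the Dppa5a-low cells 7 genes were lower than in all primed-tagged cells, beside 2.79% of all genes, and Otx2 was at a log2 ratio of 0.80 (0.70 to 0.94). Utf1, Nkx1-2, Kcnj3 and Enpp3 were under 10 CPM in the low cells. They could be called only as lower, so this share is no measure for them. Fibroblast markers summed to 3574 CPM in the low cells and to 546 CPM in the high cells, and neural markers to 812 and 174 CPM. The macrophage, smooth muscle, epithelial and mesendoderm lists were higher in the low cells too. Of the Otx2 reads of all d16 cells, cluster 3, led by Fabp7, held 57.8% and fibroblast-like cluster 6 held 8.21%. The part of these cells in the values was not tested.

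After 10 passages in 2iL, all 5 genes that passed the filter (Otx2, Pou3f1, Zic2, Utf1 and Pim2) were within 2-fold of naive cells, beside 98.5% of all genes. Naive levels of Otx2 (13.2 CPM), Pou3f1 (12.4 CPM) and Pim2 (11.4 CPM) were close to those of macrophage-like cells (10.4, 9.42 and 8.14 CPM). For these genes, being within 2-fold says little about how alike the groups are. The other 4 were under 10 CPM in both groups, where Nkx1-2 had the largest difference, 4.16 CPM (3.41 to 5.01) against 8.52 CPM (7.20 to 10.0). Between the core clusters of the expanded and the naive cells Nkx1-2 was lower, with a log2 ratio of -1.10 (-1.66 to -0.88), an interval that held 2-fold. It passed the filter only through the naive core (10.5 CPM, 8.81 to 12.4, against 4.36 CPM) and could be called only as lower. The 1.22% of all genes that were lower is therefore no measure for it. The other 4 genes that passed were within 2-fold, beside 97.7%, with Otx2 at 0.88 (0.64 to 1.29) and Pim2 at 0.79 (0.55 to 1.18). In the naive core Otx2 (8.17 CPM) and Pim2 (8.56 CPM) were under 10 CPM, so both passed only through the expanded core. Against all primed-tagged cells, 7 genes were lower in the expanded cells, beside 4.72%, and Zic2 had a ratio of 0.05 (-0.10 to 0.21). Of these 7, Nkx1-2, Kcnj3, Car14 and Enpp3 were under 10 CPM in the expanded cells and could be called only as lower. The 4.72% is therefore no measure for them.

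**Figure D3:**
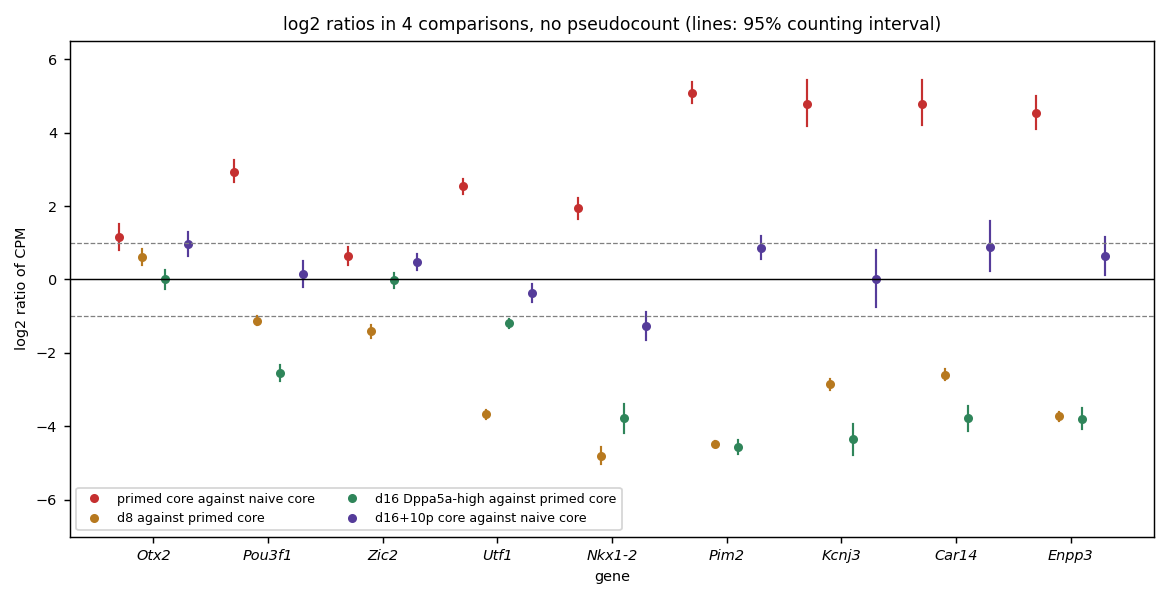
Log2 ratio of CPM without a pseudocount for each gene in 4 comparisons of cell groups; vertical lines are 95% counting intervals and dashed lines mark 2-fold. In the 2 comparisons of treated cells against the primed core, Pim2, Nkx1-2, Kcnj3, Car14 and Enpp3 lie below the dashed line and Otx2 lies at or above 0. In the core of d16+10p against that of naive cells only the point of Nkx1-2 lies below the dashed line, and its interval crosses the line.

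Summed over the 9 genes, the level was 95.1 CPM in naive and 380 CPM (373 to 388) in primed cells, then 114 CPM at d8, 137 CPM at d16 and 104 CPM in d16+10p. Within the primed tag it was 737 CPM in the core and 179 CPM outside it. The macrophage-like cells had 50.1 CPM. The sums of Dppa5a-high (134 CPM) and Dppa5a-low d16 cells (138 CPM) had overlapping intervals. Of the summed reads, Utf1 gave the largest part in the high and Otx2 in the low cells, and Zic2 came second in both (28.5 and 20.6 CPM).

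Single cells rarely showed many of the genes at equal depth. After thinning, 175 of 1555 primed-tagged cells had a read of at least 3 of the 9 genes (11.3%, 9.73 to 12.9%), and 27.5% had without thinning. Of those 175 cells, 156 (89.1%) lay in cluster 12. In the core the share was 37.8% (33.1 to 42.6%), in the other primed-tagged cells 1.66% and in naive cells 0.682%. It was 1.24% at d8 and 1.21% at d16, and 0.462% after expansion in 2iL. In macrophage-like cells it was 0 of 832, which allows a share of up to 0.361%. At d8, 110 cells reached 3 genes, and 5 of them lay in cluster 12. A core cell had on average 2.21 of the genes after thinning and 4.50 with all its reads, and 24 of 413 thinned core cells had none.

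**Figure D4:**
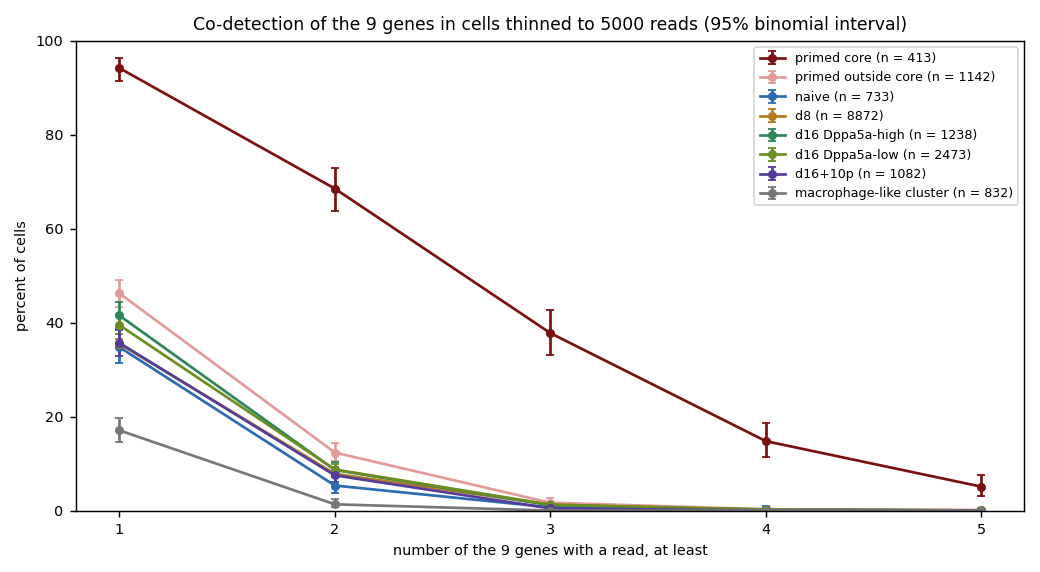
Percent of cells (thinned to 5000 reads) with a read of at least 1 to 5 of the 9 genes, by group; bars are 95% binomial intervals. In the primed core 37.8% of cells had at least 3 genes, and the next highest group, the other primed-tagged cells, had 1.66%.

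Within primed-tagged cells, most pairs of the genes were found in 1 cell more often than the product of their shares. Otx2 went the other way with each gene but Zic2, for example with Pou3f1 (11 cells, 24.3 expected). Pou3f1 with Zic2, Zic2 with Car14 and Nkx1-2 with Kcnj3 were also below the expected number. Over the 36 pairs, the median of observed over expected cells was 1.42. For Pim2 with Utf1, the pair with the highest ratio, 103 cells had both where 42.4 were expected. Within the core alone the median was 1.01, and for Pim2 with Utf1 93 cells had both where 91.9 were expected. The excess of pairs among all primed-tagged cells was thus absent as a median inside the core at this depth.

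Nkx1-2 was examined further in the core after its pair counts were seen (28 thinned cells with Pim2, 42.2 expected). Of the 423 core cells, 151 had an Nkx1-2 read among all their reads (median depth 24450) and 272 had none (median depth 22094). T (Brachyury), a factor of the primitive streak, was at 196 CPM (182 to 210) in the cells with a read and at 94.5 CPM (87.0 to 102) in the cells without. Of the 10 epiblast and streak genes looked at, T included, 4 were higher in the cells with a read, 4 were lower and 2 had overlapping intervals. The higher ones were T, Wnt8a (60.6 against 44.5 CPM), Fgf8 (73.0 against 54.0 CPM) and Lefty1 (902 against 700 CPM). The lower ones were Fgf15 (47.8 against 67.9 CPM), Fgf5 (39.1 against 53.7 CPM), Dnmt3b (157 against 182 CPM) and Pou5f1 (365 against 432 CPM). Of the other 8 genes of the set, 5 were lower and 3 had overlapping intervals. Pim2 (257 against 312 CPM), Enpp3 (61.7 against 90.0 CPM), Kcnj3 (40.6 against 57.4 CPM), Car14 (44.2 against 59.4 CPM) and Zic2 (22.6 against 33.0 CPM) were the 5. Otx2 was at 17.0 CPM (13.1 to 21.6) and 19.1 CPM (15.8 to 22.9), with overlapping intervals. The share of all genes with intervals apart in this split was not computed, so these counts have no background and are no result about the genes. These cells were split by a gene of the set and come from 1 sample, so the differences are a description.

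Of 26 other genes of the primed epiblast and early streak, 22 passed the filter between the primed and the naive core, 15 were higher and 0 lower, beside 4.95% higher and 7.57% lower of all genes. Their median log2 ratio was 1.79, beside 0.01 over all genes. Wnt8a (50.7 against 1.40 CPM), Fgf15 (60.2 against 2.72 CPM), Lefty1 (778 against 57.9 CPM) and Fgf8 (61.4 against 4.13 CPM) had the largest ratios. In Dppa5a-high d16 cells against the primed core, 14 of 22 were lower and 0 higher, beside 3.59% and 9.26% of all genes, with the largest ratios for Wnt8a (-3.92), Fgf15 (-3.59), Fgf8 (-3.40) and Lefty1 (-3.29). At d8 against the core 8 of 23 were lower, beside 8.57% of all genes. The 3 that were higher, Cer1 (2.15), Cldn6 (2.01) and Sox4 (1.48), were a share near the 14.6% of all genes and are no result about the list. Of 14 naive genes, 14 were lower in the primed core than in the naive core, and 14 were higher in Dppa5a-high d16 cells than in the primed core, beside 7.57% and 9.26% of all genes. Clusters and the Dppa5a limit chose these cells, so the counts are a description.

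Of 19 relatives of the 9 genes, 7 passed the filter between the primed and the naive core. Of these, 2 were higher, 0 were lower and 5 were within 2-fold, beside 4.95%, 7.57% and 87.5% of all genes. The carbonic anhydrase Car2, a relative of Car14, was higher in the primed than in the naive core (441 against 46.5 CPM). Pim1 (74.8 against 128 CPM) and Pim3 (24.2 against 36.8 CPM), the relatives of Pim2, had log2 ratios of -0.77 and -0.58, within 2-fold. In Dppa5a-high d16 cells against the primed core, where Pim2 had a ratio of -4.45, Pim1 was at 1.18 and Pim3 at 1.01.

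Across the 15 clusters, the genes whose log2 levels were most like the mean profile of the 9 were Hmgn5 (r = 0.932), Gm12184 (0.888), Tdrkh (0.886), Hnrnpll (0.872) and Cdk2ap1 (0.870). These r are a description over clusters of 1 library. Hmgn5, a nucleosome-binding protein, had 144 CPM in cluster 12 and 56.7 CPM in the next cluster, cluster 2. The genes themselves ranged from r = 0.946 for Pim2 to 0.305 for Otx2 with the mean that includes them.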

How the data were processed

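The deposited table holds raw counts, that is, whole reads by gene symbol. To make it, the authors used cutadapt 2.10 and then Bowtie2 2.3.4.1 against Ensembl transcripts (cDNA and ncRNA, GRCm38.p6), called cells, assigned tags and removed cells with ambiguous tags as doublets. No doublet caller was run here. Molecular identifiers are not described, so reads are not independent molecules and intervals (exact Poisson for levels, Clopper-Pearson for shares) are too narrow. Strand was not described as used in counting. Otx2 shares 154 exonic bases with Otx2os1, Nkx1-2 541 with Gm16764 and Pou3f1 330 with Gm2164 on the opposite strand, which had 330, 10 and 28 reads in all cells. Kcnj3 shares 1621 with Gm26794 on the opposite strand and Otx2 168 with Gm49154 on its own strand, and the reads of these 2 genes were not analysed here.

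The population of a cell was read from the tag that its column name begins with, matched to the tag list of the series. Clusters were made in Seurat 5.3.0 (R 4.3.3) after the parameters of the study (2000 variable genes, 56 principal components, 50 neighbours, resolution 0.8), which gave 18 clusters. All 17720 cells were clustered, without the quality check by which the study left out some cells. Clusters were named from marker lists and differences from the study can come from this rebuilding. The core of a tag was the Pou5f1-high cluster (at least 25% of the highest Pou5f1 level, and a read in at least 75% of cells) in which it was most enriched. Thinning to 5000 reads left out 68 naive and 271 primed cells, 755 cells at d8, 604 at d16 and 69 after expansion. Ratios and their intervals were run on simulated Poisson counts, the model that the intervals assume. This checks the calculation and not whether the intervals hold for these reads. Positions are from GENCODE M21 and promoters from RefSeq (GRCm38.p6).

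The 9 genes, the gene lists and the comparisons were chosen with earlier results of these data known. Named are the 9 genes, up to 4 genes of a list with the largest ratio in each direction at 10 CPM, and the genes most like the mean profile among those of at least 50 CPM. Alternatives were TMM scaling (edgeR 4.0.16), the mean of CPM per cell, other pseudocounts, cell filters, depths and Dppa5a limits, and home clusters only.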

Additional observations from a re-analysis of the deposited data

How the results depend on the processing

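No paired analysis was possible because each population was 1 sample with no replicate number, and no replicate could be left out. The number of genes at least 2-fold higher in primed than naive cells was 6 to 8 (7 as reported), that lower at d8 was 6 to 8 (7), that lower in Dppa5a-high d16 cells was 6 to 7 (6) and that within 2-fold between d16+10p and naive cells was 8 to 9 (9, with no filter). The 9 include Nkx1-2 (4.16 against 8.52 CPM), which was within 2-fold only with the pseudocount. The count of 6 genes highest in cluster 12 was the same in both other clusterings. The summed level in primed-tagged cells, 380.29 CPM, became 292.06 as a mean of CPM per cell, 316.27 after thinning, 388.91 in cells with 2000 to 8000 genes, 408.31 without mitochondrial reads and 736.85 in the core alone. The share of primed-tagged cells with at least 3 genes, 11.254%, became 4.984% at 3000 reads, 29.569% at 10000 reads, 27.492% without thinning, 0.965% where a gene needed 2 reads and 37.772% in the core alone, so this share has no meaning without its depth. Of 306 alternative values of single ratios, 181 moved by less than their interval and 125 by more. The sign changed in 12, each with a reported log2 ratio of at most 0.55 in size, and in 0 past 2-fold. Without replicates, differences between cultures were not measured, and naive and primed cells also differ by line.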
